A study of Mus musculus with 39 samples.

Results

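Cumulus clones, 2-cell embryos made by transferring the nucleus of a cumulus cell into an enucleated oocyte, were compared with the cumulus cells that had served as nuclear donors. The 8 arrays of clones without TSA, called TSA(–) here, and the 4 arrays of cumulus cells, called Cumulus, were chosen from their labels, and together they are 12 of the 39 arrays of the series. All animals were (B6xDBA/2)F1 mice, a cross of C57BL/6 and DBA/2, and the females that gave recipient oocytes and donor cells were 8 to 10 weeks old, superovulated with hCG. Each Cumulus array held RNA of 500 cumulus cells taken 15 h after hCG and freed with hyaluronidase, without culture. Each TSA(–) array held RNA of 10 pooled clones cultured in KSOM for 24 h after activation, with neither trichostatin A (an inhibitor of histone deacetylases) nor injected mRNA. Metaphase II oocytes (OC, 7 arrays of 10 oocytes) marked what the recipient cytoplasm could have supplied, and 2-cell embryos from in vitro fertilization (IVF, 6 arrays of 10 embryos, 24 h after insemination) stood beside them. The fit also held 6 arrays of 10 cumulus clones treated with 5 nM trichostatin A for 8 h, called TSA(+). These arrays entered only the estimate of the spread, and their levels are not described. The series' text calls the replicates biological but does not say how animals were shared, so the p-values measure the spread between these samples. The 4 Cumulus arrays lay on 1 slide that held no other group, read by another scanner model and software version than the OC, IVF and TSA(–) arrays, so cell type, slide and scanner cannot be told apart in any difference below.

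A cumulus cell is a granulosa cell that surrounds the oocyte. After the ovulatory signal it makes an expanded matrix of hyaluronan, and it produces progesterone. On transfer its nucleus meets the cytoplasm of an oocyte, which holds maternal mRNA laid down during growth, stops the donor nucleus from transcribing for a time, and degrades much of its own store while the embryonic genome is switched on, in the mouse mainly at the 2-cell stage. A transcript found in a clone may therefore have come with the donor cell, have been stored in the oocyte, or have been made anew.

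Levels are given as the log2 of the processed intensity over the 75th percentile of the array. A level of 0 is thus the brightness of a probe at that percentile, and a difference of 1 is a doubling relative to it. They are ratios to that percentile, neither shares of a sample's RNA nor amounts per cell. In such pooled samples fewer cells of a type and less RNA per cell cannot be told apart. The 75th percentile was 814 to 1125 units in Cumulus, 1232 to 1509 in TSA(–) and 279 to 527 in OC, and 58.9 to 66.3%, 67.2 to 77.9% and 49.1 to 60.3% of probes were well above background on those arrays. Log2 levels correlated at 0.960 to 0.973 between Cumulus arrays and 0.947 to 0.967 between TSA(–) arrays, but at 0.746 to 0.771 between a clone and a Cumulus array. Clones correlated with OC arrays at 0.778 to 0.835 and with IVF arrays at 0.923 to 0.947.

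Of 38873 probes tested, 9777 (25.2%) were lower in clones than in cumulus cells and 12043 (31.0%) were higher, at a Benjamini-Hochberg adjusted p under 0.01 in limma. By gene, taking the brightest of its probes, 5025 of 16167 genes (31.1%) were lower and 5311 (32.9%) higher. These shares are the background against which the gene groups below are to be read. The differences were often large, since 2293 of the lower and 3617 of the higher probes differed at least 16-fold. Higher calls made 55.19% of the calls on this scale, but 36.23% when arrays were centred on their median and 35.73% with the normexp background correction. The median difference over all probes was 0.14 on this scale and -0.73 and -0.40 under these alternatives. The 8 arrays of clones injected with Spi-C mRNA, 4 at 1.0 and 4 at 0.1 mg/ml taken as 1 group, which were read by the same scanner model as the Cumulus arrays, gave a comparison without the scanner difference, chosen after seeing the data. On these arrays 79.1% of the lower probes had all 8 clones below all Cumulus arrays, and 84.2% of the higher probes had all 8 above. On the TSA(–) arrays that gave the calls the shares were 86.3% and 85.2%. The Cumulus arrays are the same in both comparisons and differ from the Spi-C arrays in slide and scan day. Slide and cell type thus stay mixed, the injected mRNA is a further difference, and the shares are no independent test.

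The oocyte level divided the called probes. Of the 12043 higher probes, 4315 (35.8%) were also higher in clones than in OC, 2807 (23.3%) differed from OC in neither direction and 4921 (40.9%) were lower than in OC. Clones were thus not called above OC at 64.2% of the probes that were higher than in their donor cells. For 1439 higher probes (11.9%) no OC array was well above background, and 350 of these were also not above background on any Cumulus array while being so on all 8 clones. Of the 9777 lower probes, 4750 were below OC too, 2531 did not pass the test against OC and 2496 were above it. Over all genes 48.8% were below OC and 27.4% above, and the median difference from OC over all probes was -0.95, or -0.30 with quantile normalization and -1.62 with centring on the median. No OC array was above background for 1777 lower probes (18.2%), a larger share than among the higher probes. The share over all tested probes is not given here, so neither count alone marks gained or somatic transcripts. Of these 1777, 609 were not above background on any clone, 804 were so on 1 to 7 clones and 364 on all 8. The clone arrays are the same in both comparisons, so the counts describe the probes and no overlap was tested.

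**Figure D1:**
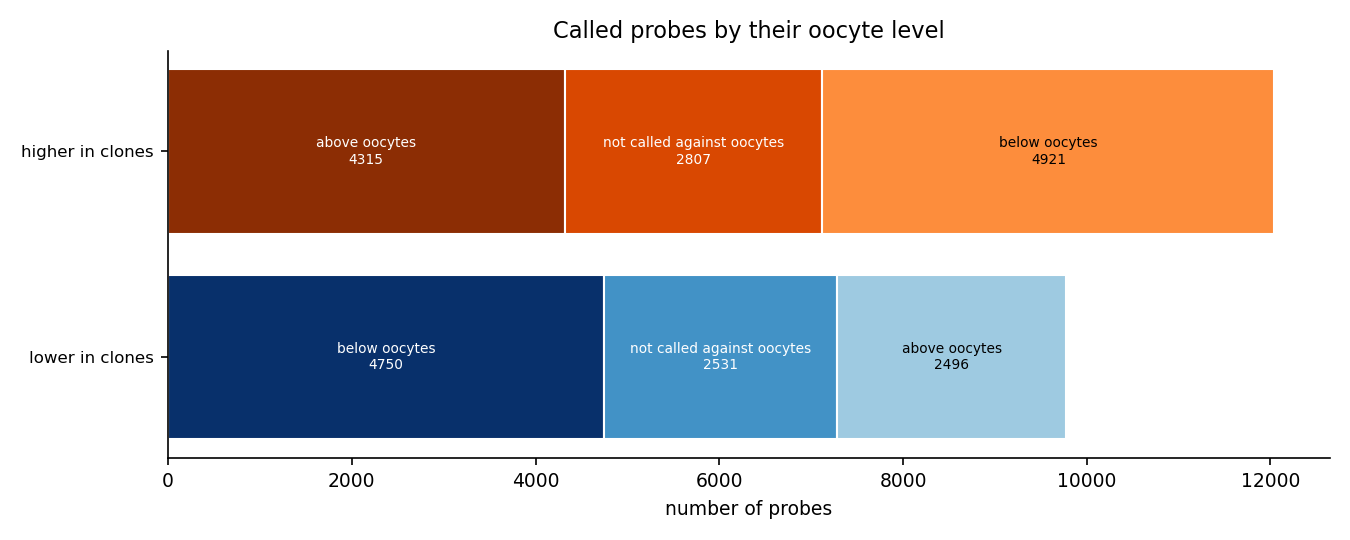
Probes called lower or higher in clones than in cumulus cells (bars, number of probes), split by whether the clones were also above the OC arrays, below them or not called. Of the 12043 higher probes 4315 were above OC, and of the 9777 lower probes 4750 were below OC.

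The labelled cell types carried their markers. The 14 cumulus and granulosa markers tested had a summed level (linear, in units of the 75th percentile) of 537.4 to 650.6 in Cumulus and 6.03 to 10.19 in clones, and 11 of them were lower in clones and none higher. The 9 oocyte markers were all higher in clones, with a summed level of 1.015 to 1.95 in Cumulus, 521.9 to 614.8 in clones and 3462 to 5899 in OC. Of the oocyte markers, 6 were not above background on any Cumulus array. The Cumulus samples also held leukocyte transcripts, since of 9 leukocyte markers 8 were well above background on every Cumulus array, and their summed level was 33.94 to 118.3 there against 0.651 to 1.128 in clones and 0.130 to 0.474 in OC. Lyz2, the lysozyme of myeloid cells, had a mean level of 5.65 in Cumulus and the pan-leukocyte gene Ptprc of -1.36. Markers of theca cells (1.724 to 9.018 against 0.722 to 1.997) and red cells (0.0974 to 1.24 against 0.0463 to 0.254) had low sums in Cumulus and clones. Endothelial markers summed to 2.523 to 3.818 in Cumulus and 2.387 to 3.305 in clones. Cdh5, which defines that cell type, was lower in clones than in Cumulus (difference -6.59, and -5.17 at its other probe), while 5 of the 8 markers were higher. Oviduct markers had a median sum of 3.025 in Cumulus, 19.16 in clones and 189.9 in OC. The part of leukocyte RNA in the differences below was not tested.

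Genes of granulosa cell hormone production were lower in clones in 19 of 26 cases and higher in none, with a median difference of -5.18, against 0.05 over all genes. Hsd3b1, the dehydrogenase that makes progesterone from pregnenolone, had levels of 7.53, 7.68, 8.20 and 7.69 on the 4 Cumulus arrays, and a lowest, median and highest level of -6.73, -5.25 and -4.13 in clones. The groups were far apart, and OC (-5.48, -3.65 and -0.49) and IVF (-6.68, -6.33 and -5.91) lay near the clones. The difference was -13.09 ± 0.68 (SE, limma adjusted p = 1.71e-16). Cyp11a1, which cleaves the side chain of cholesterol, stood at 6.95, 7.0, 6.91 and 6.80 in Cumulus and at -5.75, -3.68 and -2.79 in clones, a difference of -10.80 ± 0.61 (adjusted p = 1.33e-15). Akr1c18, which inactivates progesterone, was lower (-11.40 ± 1.47), as was Star, which carries cholesterol into mitochondria (-6.76). The gonadotropin receptors Fshr and Lhcgr were also lower (-5.54 and -6.86). Inha, the inhibin subunit that granulosa cells secrete, gave 5.63, 5.90, 6.02 and 5.71 in Cumulus against -9.00, -6.77 and -5.08 in clones, and differed by -12.70 ± 0.73. Its other probe was lower too, by a smaller difference (-2.68). The exceptions included Cyp19a1, the aromatase, whose Cumulus levels (2.42, 0.19, 0.32 and 1.61) and clone levels (1.15, 1.60 and 1.98) overlapped and whose oocyte level was 7.40, 8.16 and 8.87. Amhr2, the receptor for anti-Müllerian hormone, had 1.82, 2.47, 2.96 and 1.59 in Cumulus and 2.06, 2.49 and 3.01 in clones, which overlapped too, but -7.85, -7.02 and -5.27 in OC.

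Of 24 genes of cumulus expansion, 19 were lower in clones and 1 higher, with a median difference of -7.17. Tnfaip6, which links hyaluronan in the matrix, had levels of 5.62, 5.93, 6.28 and 5.92 in Cumulus and of -5.12, -4.18 and -2.55 in clones. The difference was -9.97 ± 0.74 (adjusted p = 5.6e-13), and clones also lay below IVF embryos (-2.47, -1.64 and -1.27), with a difference of -2.32. Ptgs2, the inducible cyclooxygenase, was at 3.05, 3.20, 3.68 and 3.40 in Cumulus and at -5.75, -4.83 and -3.42 in clones, lower (-8.10 ± 0.44). Adamts1, a protease of the matrix, fell from 4.29, 3.88, 5.20 and 4.91 to -8.88, -6.44 and -3.48. Of the growth factors that pass the ovulatory signal on, Ereg was at -0.99, -0.95, -1.30 and -0.33 in Cumulus and not above background on any clone, at least 71.0-fold lower. Areg was lower (-5.72), as was Has2, the hyaluronan synthase (-3.66). The gene that was higher was Efnb2, an ephrin, with 0.06, -0.10, -0.35 and 0.12 in Cumulus, 2.99, 3.64 and 4.01 in clones and 5.15, 5.81 and 6.61 in OC. Tnfrsf1a, a receptor for tumour necrosis factor, was lower (-2.97) but lay 7.62 above OC and 2.89 above IVF.

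Over the whole array, among probes well above background on every Cumulus array, the largest decrease was that of Sfrp2. Sfrp2, a secreted inhibitor of Wnt signalling, gave 5.28, 5.82, 5.45 and 5.34 in Cumulus, -9.66, -8.17 and -5.87 in clones and -7.02, -4.54 and -3.43 in OC. The difference was -13.47 ± 0.67 (adjusted p = 6.61e-17), and clones were also below OC (-3.10) and below IVF (-3.83). Only 1 of 8 clone arrays and 4 of 7 OC arrays were well above background at this probe. The lowest level well above background was -5.82 to -4.38 on OC arrays and -7.70 to -6.42 on clone arrays. The size of these differences thus rests on clone values near background. The MHC class Ib gene H2-M3 was at least 1291-fold lower, the semaphorin Sema3e at least 922-fold and the linker histone H1f3 at least 676-fold, since none of the clones was above background on these probes. Other probes of these genes gave smaller differences, -5.67 for H2-M3, up to -0.99 for Sema3e (2 of 3 probes lower) and -2.54 for H1f3. Epdr1, Adgrv1, Vwa5a, Nts, Hao2 and Slc36a2 were also among the 15 largest decreases, with differences of -12.87 to -11.39. At these probes only 1 to 3 of the 8 clone arrays were well above background, so the sizes are uncertain. Adgrv1 was called lower at 2 of its 4 probes, and its smallest difference was -0.04.

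Structural genes of somatic cells followed. Of 33 genes of extracellular matrix and adhesion 21 were lower and 5 higher (median -3.26), and of 22 genes of the somatic cytoskeleton 19 were lower and 1 higher (median -5.23). Vim, the intermediate filament protein of mesenchymal cells, stood at 6.77, 7.15, 7.32 and 6.79 in Cumulus, at -1.07, -0.65 and 1.12 in clones and at -6.41, -4.82 and -1.19 in OC. Its difference was -7.43 ± 0.67, and the clones lay between the donor cell and the oocyte. Timp1, an inhibitor of matrix metalloproteinases, had 7.02, 7.11, 7.62 and 7.21 in Cumulus and -2.38, -1.80 and -1.44 in clones, -9.04 ± 0.18 (adjusted p = 1.16e-26). Sparc, a secreted matrix glycoprotein, showed the same order as Vim, with 6.25, 6.52, 6.94 and 6.46, then -0.61, 0.18 and 0.63 in clones and -7.29, -5.87 and -3.76 in OC. Col6a1, a chain of collagen VI, was at least 260-fold lower, and the annexin Anxa1 and caveolin Cav1 were lower (-9.68 and -7.97). The 5 adhesion genes that were higher were the integrins Itga6 (6.26), Itga3 (3.07, but with 2 other probes lower, to -2.08) and Itgav (0.68), E-cadherin Cdh1 (5.91), the main cadherin of the early embryo, and the basement membrane gene Nid2 (3.67). Of 8 connexins only Gja1, which couples cumulus cells to one another, was lower, with 5.92, 5.83, 5.96 and 6.03 in Cumulus, -0.11, 0.30 and 0.86 in clones and -7.23, -5.91 and -3.20 in OC (difference -5.68). Gja4, the connexin of the oocyte's own junctions, and Gjb2 and Gjb5 were higher by 2.87, 2.10 and 3.59, and the median of the list, 1.81, was -0.08 with normexp, where 2 were lower and 2 higher.

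Signalling genes of the activated cumulus cell were lower as well: 21 of 26 immediate early and feedback genes were lower and 1 higher (median -4.77). Fos, a subunit of AP-1, had 5.38, 5.63, 5.79 and 5.70 in Cumulus and -4.96, -3.21 and -2.17 in clones, a difference of -8.88 ± 0.35 (adjusted p = 1.86e-19). Clones also lay below OC (-1.05, -0.46 and -0.05) and below IVF embryos (-0.35, 0.29 and 0.59), with a difference of -3.44 from the latter. Jun, its partner, was lower (-10.27), as were Egr2 (-7.61) and the orphan receptor Nr4a1 (-8.94), with 6.89, 6.87, 7.25 and 6.83 in Cumulus and -4.14, -1.86 and -0.93 in clones. Btg2, an antiproliferative gene, fell from 7.19, 7.06, 7.43 and 7.19 to 1.14, 1.41 and 1.55. Fos, Dusp6 (-2.29) and Zfp36 (-1.63), both of them feedback regulators, were among 6 genes of the list that were lower in clones than in IVF embryos, where 13.4% of all genes were lower. Klf4 was higher by 2.71. Ier5 gave 4.65, 4.86, 5.05 and 4.89 in Cumulus and 4.26, 4.38 and 4.78 in clones, which overlapped (difference -0.41, adjusted p = 0.276), and -7.63, -6.56 and -4.86 in OC. Of 17 genes of antigen presentation and the interferon response 12 were lower and none higher (median -2.89). Ifit3 and Ifit1, both induced by interferon, were lower (-7.06 and -4.42), as was the immunoproteasome subunit Psmb8 (-4.41), and B2m, the light chain of MHC class I, went from 4.90, 5.41, 5.85 and 5.07 to 1.90, 2.12 and 2.36. Leukocytes also express these genes, beside whose fall the leukocyte markers fell in 8 of 9 cases.

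Promoters of genes in these groups were searched for the motifs of factors known to act on them, in RefSeq windows from 250 bases before to 50 after the start (GRCm38.p6, either strand). TGACGTCA, the cAMP response element and its own reverse complement, was found in 3 of 22 immediate early genes (13.64%: Btg2, Dusp1 and Maff) and 1 of 21 expansion genes (4.76%: Areg), against 2.03% of 27025 genes. AAGGTCA, the site of the NR5A nuclear receptors, was found in 1 of 19 steroidogenic genes (5.26%: Amhr2), against 5.38%. CCGGAAG, the core of ETS factor sites, was found in 10 of 35 ribosome biogenesis genes (28.57%) and 15 of 40 ribosomal protein genes (37.5%), against 9.93%. The 250 bases before the start are shown for a feedback gene and a growth factor that were lower in clones, a ribosomal protein gene that was lower, and a ribosome biogenesis gene that was higher, with the motif in capitals. They were Btg2 (chr1:134079156-134079405, minus strand), Areg (chr5:91139349-91139598, plus strand), Rpl38 (chr11:114668330-114668579, plus strand) and Nolc1 (chr19:46075597-46075846, plus strand).
Btg2: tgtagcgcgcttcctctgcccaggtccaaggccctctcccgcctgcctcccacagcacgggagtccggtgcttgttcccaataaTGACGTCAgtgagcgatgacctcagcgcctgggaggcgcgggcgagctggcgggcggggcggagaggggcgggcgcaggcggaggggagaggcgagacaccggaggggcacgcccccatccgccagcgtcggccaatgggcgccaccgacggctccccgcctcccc
Areg: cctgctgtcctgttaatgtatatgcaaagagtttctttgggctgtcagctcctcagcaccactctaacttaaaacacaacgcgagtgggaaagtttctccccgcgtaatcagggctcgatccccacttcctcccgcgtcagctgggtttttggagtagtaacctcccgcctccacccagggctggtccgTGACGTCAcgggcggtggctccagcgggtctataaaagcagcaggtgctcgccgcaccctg
Rpl38: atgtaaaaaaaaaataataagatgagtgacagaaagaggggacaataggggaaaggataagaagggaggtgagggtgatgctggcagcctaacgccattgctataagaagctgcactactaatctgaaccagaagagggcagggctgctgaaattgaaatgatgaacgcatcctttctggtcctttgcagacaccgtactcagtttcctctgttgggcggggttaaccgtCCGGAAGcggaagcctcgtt
Nolc1: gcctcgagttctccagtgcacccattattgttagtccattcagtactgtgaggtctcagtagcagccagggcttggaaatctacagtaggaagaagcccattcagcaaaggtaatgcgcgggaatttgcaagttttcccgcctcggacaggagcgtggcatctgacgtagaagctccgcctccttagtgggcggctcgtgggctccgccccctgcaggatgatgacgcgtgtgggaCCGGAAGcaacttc
Clones and Cumulus differed in opposite directions at the latter pair, which both hold the ETS core. Rpl38, a protein of the large ribosomal subunit, had 5.39, 5.66, 6.30 and 5.73 in Cumulus and 2.14, 2.32 and 2.82 in clones, and Nolc1, a nucleolar chaperone, -2.28, -1.05, -1.19 and -2.77 in Cumulus and 0.12, 0.70 and 1.21 in clones. The matches are letters in a window and no binding was measured.

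**Figure D2:**
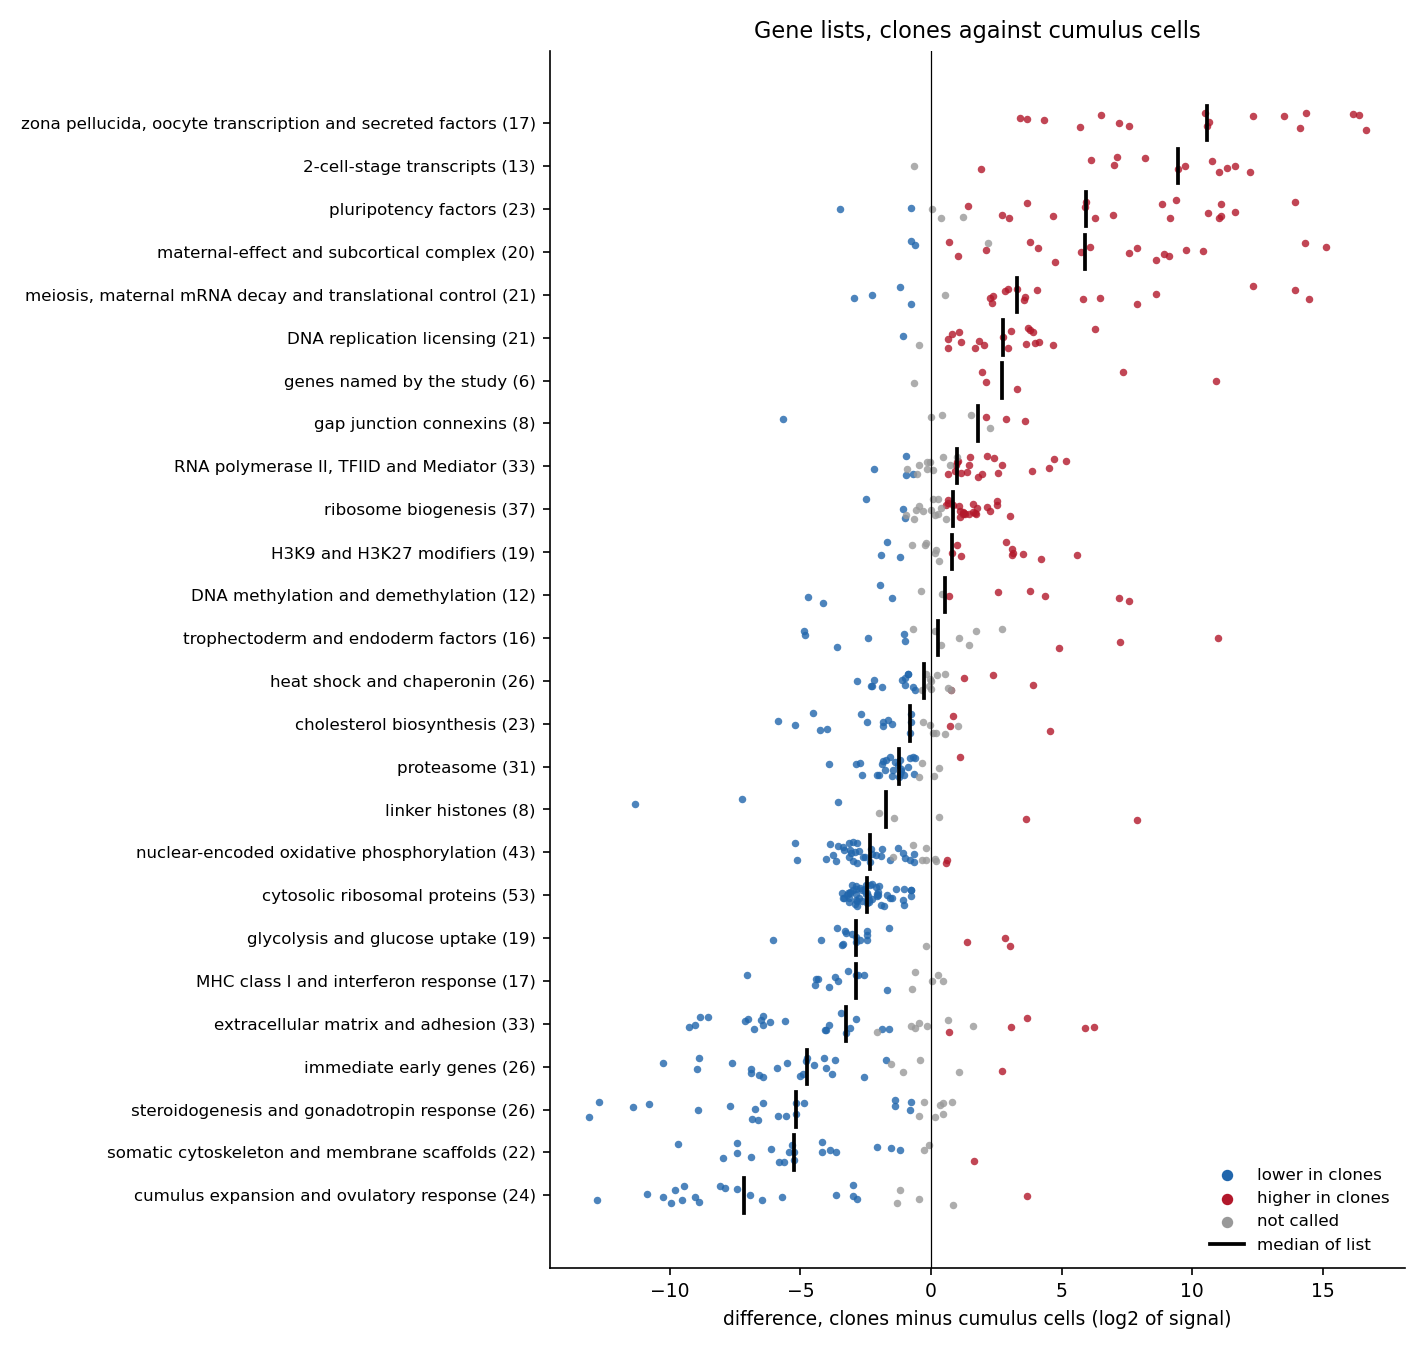
Difference between clones and cumulus cells (log2, TSA(–) minus Cumulus) for each gene of the lists, 1 dot a gene, blue for lower, red for higher and grey for not called, with a black bar at the list's median. Hormone, expansion and cytoskeleton genes lie to the left (medians -5.18, -7.17 and -5.23) and zona and 2-cell genes to the right (10.58 and 9.47).

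Ribosomal protein, oxidative phosphorylation and proteasome genes were also mostly lower in clones, relative to the rest of the sample's RNA. All 53 ribosomal protein genes tested were lower, with a median of -2.46, and 43 of them were at the same time above OC, with a median of 2.31. Rpl7 had 7.16, 7.15, 7.70 and 7.40 in Cumulus, 3.72, 4.04 and 4.36 in clones and 0.29, 0.49 and 0.98 in OC, a difference of -3.35 ± 0.15 (adjusted p = 7.42e-18) from the donor cell and of 3.42 from OC. Clones lay between the donor cell and the oocyte, as they did at Rps9, with 3.52, 4.36, 4.76 and 3.46, then 0.46, 0.89 and 1.42 in clones and -5.12, -4.45 and -3.90 in OC. Of 43 genes of oxidative phosphorylation 34 were lower and 2 higher (median -2.34). Ndufa8, a subunit of complex I, gave 3.48, 4.24, 4.97 and 3.67 in Cumulus and -1.59, -1.04 and -0.19 in clones (difference -5.13), and Ndufb7 of the same complex was lower (-4.03). Those higher were Cox8a (0.56) and Ndufab1 (0.61, but -3.41 at another probe). Of 31 proteasome genes 26 were lower and 1, Psmd3, was higher by 1.1 (median -1.22). Psmb5, a catalytic subunit, had 4.28, 4.25, 4.46 and 4.45 in Cumulus and -0.17, 0.26 and 1.22 in clones. Against IVF embryos 15 proteasome genes were higher in clones and 1 lower, where 10.6% of all genes were higher and 13.4% lower.

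Glycolysis, cholesterol and chaperone genes had members in both directions. Of 19 glycolytic genes 15 were lower and 3 higher (median -2.87). Ldha, the lactate dehydrogenase subunit of glycolytic cells, was at 7.55, 7.64, 7.97 and 7.77 in Cumulus, at 4.25, 4.79 and 4.93 in clones and at -5.69, -1.56 and 1.01 in OC, a difference of -3.01 ± 0.68 from the donor cell. Ldhb, the other subunit, ran the opposite way, with 3.63, 3.90, 4.17 and 3.78 in Cumulus, 6.50, 6.75 and 6.83 in clones and 9.46, 9.70 and 9.87 in OC. Slc16a3, which exports lactate, was lower (-6.04), whereas the pyruvate and lactate carrier Slc16a1 was higher by 1.39. The glucose carrier Slc2a3 was at -2.01, -1.60, -2.84 and -2.27 in Cumulus, 0.36, 0.70 and 1.46 in clones and -6.47, -3.85 and -2.48 in OC, so that clones were above both sources. Aldoc, Eno1 and Tpi1 were lower (-4.19, -3.58 and -3.38). Of 23 cholesterol synthesis and uptake genes 14 were lower and 3 higher (median -0.82), with Tm7sf2 (-5.85), Fdps (-5.21) and the regulator Srebf2 (-4.54) lower and Insig1, a brake on the pathway, higher by 4.56. Of 26 heat shock genes and chaperones 12 were lower and 4 higher (median -0.27). Cct4, Hsp90ab1 and Hspa8 were lower (-2.83, -2.29 and -2.27), and the heat shock factors Hsf2 and Hsf1 and the inducible Hspa1b were higher by 3.89, 2.36 and 1.26.

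**Figure D3:**
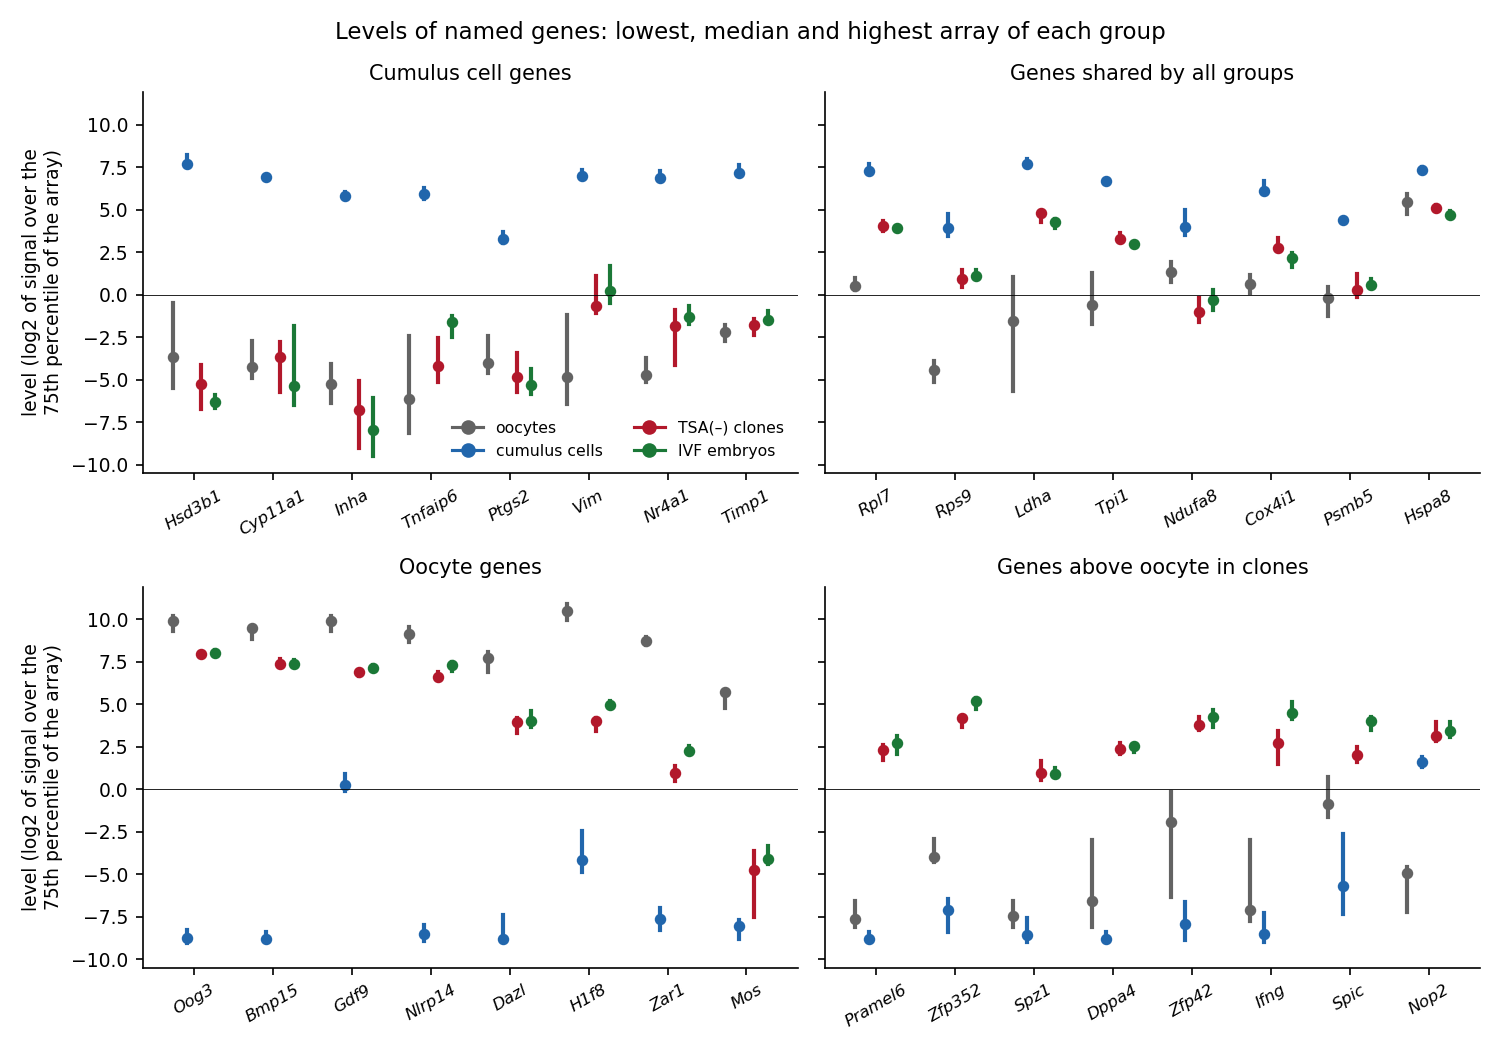
Levels (log2 of intensity over the array's 75th percentile) of genes of 4 kinds in OC, Cumulus, TSA(–) and IVF, drawn from the lowest to the highest array with a mark at the median. Hsd3b1 lies between 7.53 and 8.20 in Cumulus and between -6.73 and -4.13 in clones, while Oog3 lies between -9.05 and -8.25 in Cumulus and between 7.82 and 8.09 in clones.

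Oocyte genes made up the largest gains over the donor cell. All 17 zona and oocyte-secreted genes were higher in clones than in Cumulus (median 10.58), and all 17 were below OC (median -2.63). Oog3, an oocyte gene of the leucine-rich repeat family, had -9.05, -8.78, -8.25 and -8.72 in Cumulus, 7.82, 7.96 and 8.09 in clones and 9.32, 9.91 and 10.21 in OC. It was not above background on any Cumulus array, and clones were at least 22200-fold higher (difference 16.66 ± 0.15, adjusted p = 5.36e-35). Bmp15, a growth factor that the oocyte sends to its cumulus cells, was at least 15580-fold higher, with -8.98, -8.83, -8.39 and -8.74 in Cumulus, 7.34, 7.40 and 7.68 in clones and 8.83, 9.48 and 9.53 in OC. Its partner Gdf9 gave 0.01, 0.53, 0.90 and -0.11 in Cumulus, 6.67, 6.90 and 7.0 in clones and 9.30, 9.91 and 10.17 in OC, so that the Cumulus arrays held a measurable level. The other probes among the 15 with the largest rise were Omt2b, Oosp1, E330034G19Rik, Trim61, Gdap1, Obox5, Nlrp14, Khdc1a, Wee2, Oas1d, Nlrp4f, Oosp3 and Obox7, several of them from oocyte gene families, with differences of 14.09 to 16.62. Every one of the 15 was below OC, with differences of -1.0 to -3.59. Over all probes the median difference from OC was -0.95, or -0.30 with quantile normalization. Each array was scaled at its 75th percentile, which was 279 to 527 units in OC and 1232 to 1509 in clones. What this scaling adds to the differences from OC was not tested. Among the 10 genes higher than in Cumulus, not called above OC and with the highest level in oocytes, several were also well expressed in the donor cell. Spin1, a meiotic spindle protein, had 5.56, 5.36, 5.53 and 5.58 in Cumulus, 7.73, 7.88 and 8.00 in clones and 9.41, 9.93 and 10.29 in OC. Bcl2l10, an inhibitor of apoptosis in oocytes, was higher than in Cumulus by 9.30, Tmcc3 by 7.08, the poly(A) polymerase Tent4a by 3.93, Unc50 by 2.44 and the co-chaperone Dnajb4 by 2.13.

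Of 20 maternal-effect genes, whose products the embryo needs before its own transcription, 17 were higher in clones than in Cumulus, 2 lower and 16 below OC, against 48.8% of all genes below OC. H1f8, the oocyte linker histone, had -2.46, -4.85, -4.24 and -4.01 in Cumulus, 3.44, 4.05 and 4.17 in clones, 9.96, 10.48 and 10.90 in OC and 4.77, 4.98 and 5.21 in IVF. Clones were higher than the donor cell by 7.88 and lower than OC (-6.46) and IVF (-1.02). Zar1, needed for the first cleavage, was at least 179-fold above Cumulus, -7.73 against OC and -1.28 against IVF. Of these genes 8 were below IVF embryos and none above, against 13.4% of all genes below IVF and 10.6% above. Among 21 genes of oocyte meiosis and mRNA decay 16 were higher, 4 lower and 15 below OC. Mos, the kinase that holds the oocyte in metaphase II, was at -7.53, -4.74 and -3.63 in clones and at 4.79, 5.70 and 5.79 in OC, a difference of -10.42 from the oocyte, and still at least 3.098-fold above Cumulus. Btg4, which brings deadenylase to maternal mRNA, was 13.93 above Cumulus, the RNA-binding genes Dazl and Cpeb1 12.33 and 8.62 above it, and Cnot6l, a deadenylase, 5.83. Plat, the tissue plasminogen activator, was lower than in Cumulus (-2.95) and in OC (-7.25). Ccnb1 was higher than in Cumulus by 2.26 and Ccnb2 lower (-0.76).

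Of 21 replication licensing genes 19 were higher in clones than in Cumulus and 1 lower (median 2.76), and 17 were below OC. Cdc6, which loads the helicase onto origins, had -3.16, -4.49, -5.87 and -3.42 in Cumulus, 1.89, 2.07 and 2.27 in clones and 2.73, 2.94 and 3.44 in OC. Cdc45, Mcm10 and Mcm2 were higher by 4.69, 4.15 and 3.99, and the origin subunit Orc3 was lower (-1.07). Of 33 genes of RNA polymerase II, TFIID and Mediator 19 were higher and 4 lower (median 0.98), but 10 higher and 11 lower (median 0.115) when arrays were centred on their median, and 20 were below OC. Gtf2a1, a subunit of TFIIA, was higher by 5.19 and Taf5 by 4.5, and Med12 was lower (-2.18). Med14 was called in both directions, with 3.869 at its brightest probe and -4.252 at another.

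Gains above the oocyte formed another set. Of 30 genes listed as active in the 2-cell embryo 13 had a tested probe, and 12 of these were higher in clones than in Cumulus and none lower (median 9.47). Among the 13, 10 were above OC, against 27.4% of all genes. Pramel6 was at -8.99, -8.83, -8.37 and -8.80 in Cumulus, at 1.72, 2.34 and 2.61 in clones, at -8.08, -7.60 and -6.58 in OC and at 2.06, 2.70 and 3.17 in IVF. Neither source was above background, and clones were at least 433-fold above Cumulus (difference 11.02 ± 0.22). Zfp352, a zinc finger gene of 2-cell embryos, had -7.27, -8.39, -6.45 and -6.96 in Cumulus, 3.69, 4.17 and 4.29 in clones, -4.28, -3.97 and -2.90 in OC and 4.70, 5.21 and 5.35 in IVF, at least 1514-fold above Cumulus and -1.05 against IVF. Pramel7 and Tdpoz1 were higher than in Cumulus by 10.77 and 9.71 and than in OC by 8.87 and 6.13. Tcstv3 was 12.22 above Cumulus and 1.01 above OC, while Tcstv1 was 11.64 above Cumulus and not called against OC (0.15). Zscan4c, the zinc finger gene of the 2-cell burst that also acts at telomeres, gave -6.54, -6.78, -6.89 and -6.50 in Cumulus, -2.28, 0.59 and 1.53 in clones, -2.25, 0.74 and 1.85 in OC and 3.89, 4.14 and 4.88 in IVF. Its clones were above Cumulus by 7.03 but overlapped OC (-0.27, not called), and they lay below all IVF arrays (-3.87). Paralogs of these families can share probes, so a value may belong to several of them. Of the 13 genes, 6 were below IVF and none above, beside 13.4% and 10.6% of all genes.

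The probes with the largest rise over Cumulus that were also called above OC, with no OC array above background, included Pramel6, Guca1a (9.52), Spz1 (9.47), Dusp26 (9.27), Glod5 (9.02), Slc25a41 (8.71), Tcf23 (8.64), another probe of Zfp352 (8.61) and Shbg (8.57). Spz1, a transcription factor named from the testis, had -9.00, -8.83, -8.35 and -7.57 in Cumulus and 0.54, 0.96 and 1.70 in clones. Shbg, the carrier of sex steroids, had -6.61, -8.79, -8.26 and -8.69 in Cumulus, 0.09, 0.48 and 1.05 in clones and -4.42, -3.84 and -3.15 in IVF. At Shbg clones lay above Cumulus and above IVF embryos, the latter by 4.23, and Tcf23 and Slc25a41 were above IVF by 3.03 and 2.82. Tcf23 had another probe, which differed from Cumulus by 0.47 and was not called. Of the 4315 probes above Cumulus and OC 463 (10.7%) were below IVF and 831 (19.3%) above it, beside 13.4% and 10.6% of all genes by their brightest probe.

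Of 23 pluripotency genes 18 were higher in clones than in Cumulus and 2 lower (median 5.94), and 6 of the 18 were above OC. Among all 23, 7 were above OC and 10 below it, beside 27.4% and 48.8% of all genes. Dppa4, Zfp42 and Pou5f1, expressed in pluripotent cells, were at least 458-fold, 1264-fold and 1462-fold higher. Pou5f1 had -8.03, -6.75, -6.87 and -6.67 in Cumulus, 3.76, 4.0 and 4.30 in clones and 4.13, 4.75 and 4.98 in OC, so that its gain over the donor cell did not go beyond the oocyte's level. Sox2 was at -3.44, -2.70 and -1.92 in clones, at 0.37, 1.87 and 2.76 in OC and at 1.85, 2.29 and 2.56 in IVF, at least 13.8-fold above Cumulus but -4.95 against IVF. Tbx3 (5.94) and Klf5 (2.97) were above Cumulus and below IVF (-3.04 and -1.78), and Nanog was higher than in Cumulus by 3.67 and than in OC by 1.92. Klf2 (-3.49) and Nr5a2 (-0.76), which the donor cell also expressed, were lower.

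Ribosome biogenesis genes were compared with both sources. Of 37 tested 22 were higher than in Cumulus, 3 lower, 21 above OC and 12 below it. The median against Cumulus was 0.83, but -0.039 when arrays were centred on their median, where 7 were higher and 9 lower. Nop2, an rRNA methyltransferase, had 1.45, 1.92, 1.8 and 1.34 in Cumulus, 2.82, 3.13 and 3.96 in clones and -7.21, -4.91 and -4.55 in OC. It was higher by 1.61 than in the donor cell and by 8.52 than in OC, and the snoRNP protein Nop56 by 1.46 and 8.08. Dkc1 and Rrp9 were higher than in Cumulus by 3.03 and 2.53, and Gnl2 and Nop10 were lower (-1.07 and -0.98). The helicase gene Ddx21 was lower at its brightest probe (-2.476) and higher at the other 2, by up to 2.367.

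The genes that the study followed lay for the most part above both sources and below fertilized embryos. Of 6 tested 5 were higher than in Cumulus, 6 were above OC and 5 were below IVF. Spic, an ETS factor of the Spi family, had -5.38, -7.33, -2.62 and -5.96 in Cumulus, 1.59, 2.04 and 2.47 in clones, -1.61, -0.85 and 0.74 in OC and 3.51, 4.03 and 4.23 in IVF. The difference was 7.37 from Cumulus, 2.81 from OC and -1.90 from IVF, and another probe gave 7.59 from Cumulus. Ifng, the interferon of lymphocytes, was at -8.96, -8.68, -8.36 and -7.28 in Cumulus, at 1.48, 2.73 and 3.41 in clones and at 4.16, 4.5 and 5.13 in IVF, at least 543-fold above the donor cell. The epithelial ETS factor Elf3 had -3.22, -2.71, -1.69 and -3.46 in Cumulus and 0.28, 0.44 and 1.15 in clones, higher by 3.29. The other members were Hipk1 (1.96, and 0.94, not called, at another probe), Ppp1r8 (2.12 and 1.94 at its probes) and Eif1a (-0.64, adjusted p = 0.127, and -3.88, called lower, at another probe). The study took some of these genes from these same samples, so the counts against IVF and OC are not independent evidence.

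**Figure D4:**
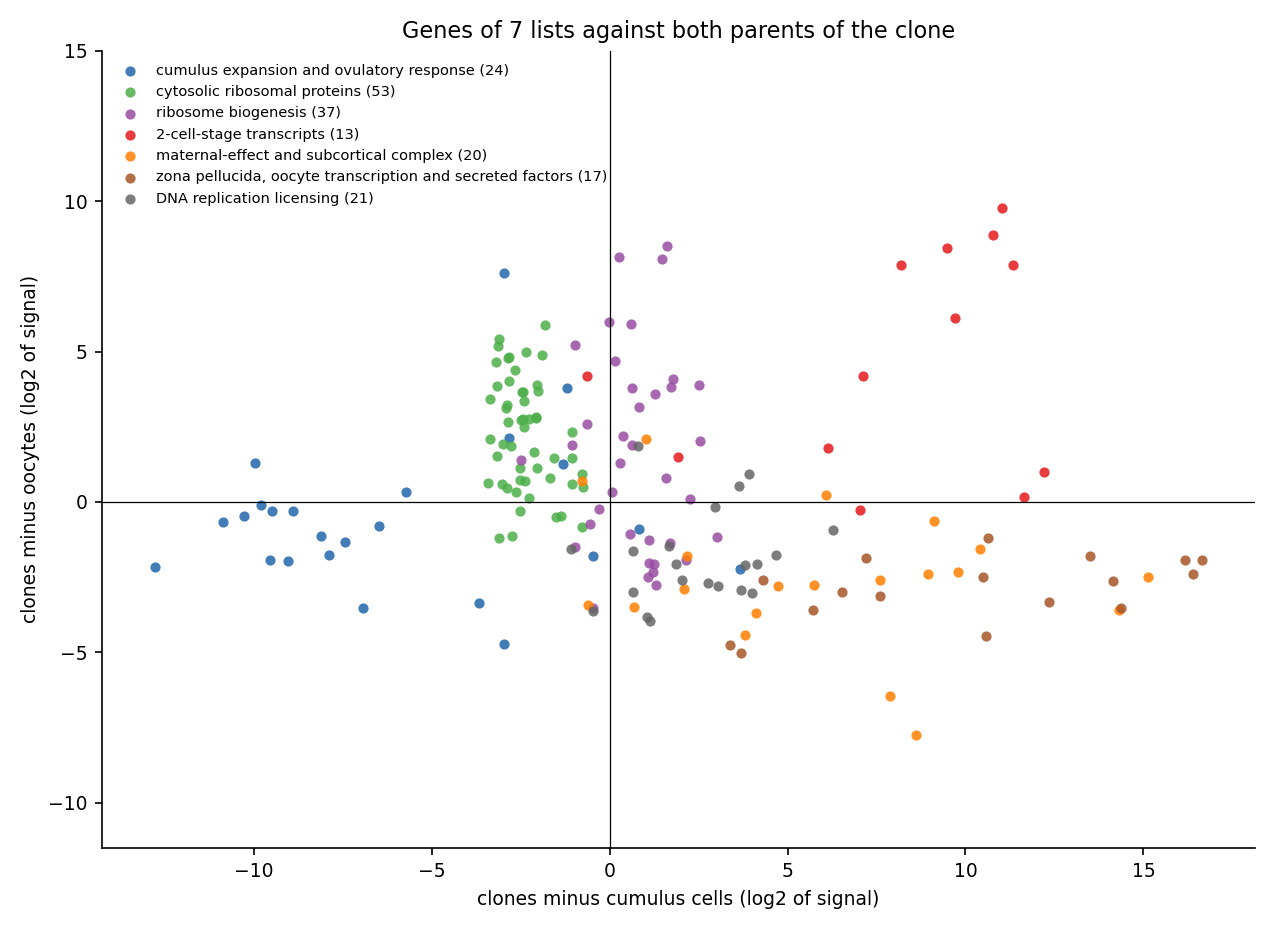
Each gene of 7 lists by its difference between clones and cumulus cells (horizontal axis, log2) and between clones and oocytes (vertical axis, log2). Ribosomal protein genes lie at upper left (medians -2.46 and 2.31), zona and oocyte-secreted genes at lower right (10.58 and -2.63), and 2-cell genes at upper right.

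Of 16 trophectoderm and endoderm genes 3 were higher than in Cumulus, 6 lower and 7 below IVF, where 13.4% of all genes were below. Their median against Cumulus, 0.26, became -0.602 with centring on the median, -0.181 with normexp, -0.15 on the Spi-C arrays and -0.425 with only probes well above background. Cdx2, the trophectoderm regulator, was at -9.05, -5.25 and -3.89 in clones and at -1.25, -0.45 and -0.03 in IVF, a difference of 2.71 from Cumulus that was not called (adjusted p = 0.0135) and of -5.47 from IVF. Eomes, which acts with it, had -8.50, -7.55 and -3.92 in clones and 0.42, 0.82 and 1.08 in IVF, -7.58 against IVF, and Foxa2, an endoderm factor, was -7.14 against IVF. The 3 higher genes were Tfap2c, Gata3 and Hand1 (10.996, 7.23 and 4.90), of which Tfap2c was -4.23 against OC and Hand1 -3.24 against IVF. Id2, Krt8 and Krt18, which somatic cells also express, were lower (-4.85, -4.83 and -2.41).

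Chromatin genes went both ways. Of 12 genes of DNA methylation 6 were higher and 4 lower (median 0.55, but -0.313 with 5 higher and 5 lower when centred on the median). Dnmt3l, Dnmt3a and Uhrf1 were higher by 7.19, 4.36 and 3.80 and Dnmt1, the maintenance methyltransferase, by 0.68, while the glycosylase Tdg was lower (-4.14), with 4.48, 3.86, 4.12 and 4.68 in Cumulus and -0.84, 0.17 and 1.05 in clones. The brightest probe of Tet2, a demethylation enzyme, was higher by 7.58 and its other probe lower (-2.2). Of 19 enzymes of H3K9 and H3K27 methylation 10 were higher and 3 lower (median 0.80, but -0.066 with 7 higher and 6 lower when centred on the median). Suv39h2, the H3K9 methyltransferase, and the demethylases Kdm4a and Kdm6b were higher by 5.59, 4.21 and 3.54, the Polycomb subunits Ezh2, Eed and Suz12 by 3.13, 3.12 and 3.09, and Ehmt2 and Kdm3a lower (-1.68 and -1.20). Kdm4c was lower at its brightest probe (-1.91) and higher at another (3.30). Of 8 linker histones 3 were lower and 2 higher. The somatic H1f2 was at 7.33, 7.28, 7.66 and 7.53 in Cumulus and at -0.38, 0.24 and 0.80 in clones, lower (-7.24), and H1f0 was lower at its brightest probe (-3.552) and higher at another (1.522), while the oocyte H1f8 described above and H1f1 (3.65) were higher. Xist, the RNA that silences an X chromosome in female somatic cells, was at -3.45, -4.68, -3.40 and -2.81 in Cumulus, at -9.37, -8.88 and -8.18 in clones and at -8.10, -7.50 and -6.56 in OC on its 1 probe. It was at least 10.98-fold lower (difference -5.21 ± 0.43, adjusted p = 7.47e-12), and no clone or OC array was above background.

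Some genes of the donor cell stood well above the oocyte in clones. Amhr2 and Ier5, above, were not called lower than in Cumulus, and neither was called above IVF embryos. The 5 genes that follow had the highest levels in clones among those lower than in Cumulus with no OC array above background. Stk17b, a death-associated kinase, had 3.89, 3.90, 4.18 and 4.22 in Cumulus, 2.65, 3.33 and 3.68 in clones, -7.83, -7.33 and -6.38 in OC and 3.15, 4.01 and 4.45 in IVF, a difference of -0.80 from the donor cell. Arrdc3, an arrestin, had 4.5, 4.69, 4.71 and 4.41 in Cumulus, 0.65, 1.38 and 1.8 in clones and -7.77, -7.27 and -6.33 in OC, a difference of -3.27. IVF embryos also expressed Stk17b and Arrdc3 (the latter at 1.22, 1.64 and 1.75), at levels that overlapped the clones'. Where the transcripts of the clones came from was not tested. Of the 1777 lower probes with no OC array above background, 149 (8.4%) were higher in clones than in IVF embryos and 143 (8.0%) lower. Over all genes by their brightest probe the shares were 10.6% and 13.4%. Lpar6, a receptor for lysophosphatidic acid, was lower than in Cumulus (-1.60) and in IVF (-1.69), whereas Tatdn1 and Vegfa, lower than in Cumulus (-0.99 and -0.92), were above IVF by 0.93 and 1.03. At this probe of Vegfa clone and Cumulus arrays overlapped, and its 3 probes, all lower, differed by -4.17 to -0.89.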

How the data were processed

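One array of the Agilent Whole Mouse Genome design was hybridized per sample, with Cy3-labelled RNA from 2 rounds of linear amplification. The authors deposited scanner files whose processed intensity had been background-subtracted and detrended with Agilent Feature Extraction (version 9.5.3.1 in the submitters' processing notes), and whose marks for outlier spots and for spots well above background were used here. The deposited table of log2 values, used as an alternative, tracked the same signal after scaling each array at its 75th percentile and centring each probe on its median (lowest correlation 0.9997). The deposited spot and background intensity entered only the normexp alternative.

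The log2 of the processed intensity was taken minus the 75th percentile of each array. Control and outlier spots were left out (1741 missing values in the 5 groups fitted), spots of a probe were averaged, and probes with an intensity of at least 10 on at least 1 array were tested, 38873 of 41174. A single model held the arrays of OC, IVF, TSA(+), TSA(–) and Cumulus, fitted with lmFit and eBayes of limma 3.58.1 (R 4.3.3, statmod 1.5.0), with Benjamini-Hochberg adjustment over all probes and a threshold of 0.01. Where no array of a group was well above background, the fold is a lower bound: the mean of the brighter group against the mean of, per array, the higher of the lowest signal well above background and the probe's own value. No spot was saturated. Probe accessions were looked up in the RefSeq annotation of GRCm38, which named 23374 probes (16535 symbols). A gene is given by its brightest probe, but a gene named by its rank over the whole array is given by the ranked probe. Probes of 470 of 5349 genes with several were called in both directions. Where a probe lies in its transcript was not analysed.

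The genes and lists were chosen with earlier results of these data known. Named genes are the 15 probes with the largest decrease and the 15 with the largest increase that were called, did not overlap and exceeded background on all arrays of the brighter group, the 10 with the largest rise also above OC, the 10 higher genes with the highest oocyte level among those not above OC, the 5 lower genes with the highest level left in clones, the 4 called members of each list with the largest difference, and the study's own genes with Xist. Members of lists named beyond these were chosen after their values were seen. A few genes that the rule names are not reported here. The probes of the lists that could not be matched by symbol were not used.

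The alternatives were centring on the median, quantile normalization, normexp with an offset of 50, other filters and thresholds, Tukey's test of the methods, a fit of the TSA(–), Cumulus and OC arrays alone, the slide or replicate number as a block, the mean over a gene's probes, and leaving out each array. The Spi-C clone arrays in place of TSA(–) were added after seeing the data. On simulated data of 38873 probes for the clone and Cumulus comparison, limma recovered 16 of 100 changes of 1 and 49 of 100 changes of 2 on the log2 scale, with 1 false call. Only these probes were changed there, with independent normal noise, while 25.2% and 31.0% of probes were called lower and higher in the data. The adjusted threshold was therefore stricter in the simulation, and its recovery does not measure the sensitivity of the real comparison. Precision is limited by the number of arrays. Figures were drawn with matplotlib 3.10.9.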

Additional observations from a re-analysis of the deposited data

Results flagged for a closer look

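Within the 8 clone and the 4 Cumulus arrays, 1 array stood apart from the rest of its group (Dixon's test at the 95% level) for 6 of 66 list medians and 25 of 312 levels of named genes. Chance alone flags about 1 in 20 groups. All values are log2 levels, and no cause was tested.

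The median of the connexins was -1.68 on clone array 4, against -3.619 to -2.966 on the others, and -4.34 on Cumulus array 4, against -5.727 to -5.511. On clone array 4, Gja5 was at -3.666 (others -7.219 to -5.637), Gjb5 at -2.982 (-6.043 to -4.727) and Adgrv1 at -4.003 (-8.955 to -6.666). On clone array 7 the median of the proteasome genes was 3.281 (others 2.366 to 2.763) and that of the trophectoderm and endoderm genes -2.388 (-1.725 to -1.175).

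The median of the cumulus and granulosa markers was -5.171 on clone array 1 (others -4.454 to -3.94). On the same array Slc36a2 was at -5.465 (-9.41 to -7.87), Ifit3 at -4.725 (-9.824 to -8.574) and H1f8 at 3.44 (4.008 to 4.171). On clone array 2 Gdap1 was at 6.818 (7.036 to 7.088), Cct4 at 0.696 (1.26 to 1.469), Hsf1 at 2.488 (1.3 to 1.63), Suv39h2 at 2.008 (2.633 to 3.129) and Ezh2 at 3.992 (4.24 to 4.449). Hand1 was at -7.984 on clone array 3 (-4.242 to -1.265) and Elf3 at 1.153 on clone array 5 (0.278 to 0.682). On clone array 8 Epdr1 was at -4.214 (-9.056 to -7.214), Obox7 at 6.138 (5.323 to 5.696) and Atp5d at -0.119 (0.44 to 0.856).

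Among Cumulus arrays, the endothelial median was -5.899 on array 2 (-4.571 to -4.488) and H1f3 was at 1.593 there (2.545 to 2.712). On array 1 Pou5f1 was at -8.03 (-6.868 to -6.673) and another pluripotency gene at -2.717 (-8.653 to -8.243). On array 3 Oas1d was at -5.933 (-8.996 to -8.724), Dazl at -7.372 (-9.0 to -8.797), Nr4a1 at 7.255 (6.827 to 6.887), Ddx21 at 2.2 (2.722 to 2.813), Cdc45 at -3.125 (-1.489 to -1.298) and Atp5d at 3.958 (4.587 to 4.63).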

How the results depend on the processing

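Of 4051 values of 156 gene results under the alternatives, 4000 kept their direction and their side of the threshold, 20 were no longer called, 12 were newly called and 19 changed sign; of 825 list medians 96 moved by more than the spread between arrays and 8 changed sign. Centring on the median gave 15031 lower probes, 2665 higher probes above OC and 3147 lower probes with no OC array above background. Normexp gave 17677 lower probes, and 735 higher and 5813 lower probes with no OC array above background. Counting probes above background on fewer than 4 of the 7 OC arrays gave 2704 and 3043. Without a Cumulus array the counts were 9186 to 9267 lower, 11341 to 11556 higher, 4158 to 4215 above OC, 7183 to 7394 not above OC, and 1281 to 1326 higher and 1644 to 1683 lower with no OC array above background. Without a clone array they were 9542 to 9691, 11847 to 11981, 4184 to 4270, 7641 to 7739, 1387 to 1461 and 1702 to 1789. Tukey's test gave 8674 lower and 10976 higher, and an adjusted p under 0.05 gave 11183 and 13513.

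Signs changed for Gja5 (-0.297) with normexp, for Gjd3 with median centring (-0.445), normexp (-0.483) and quantile normalization (-0.449), and for H1f10 under the same settings (-0.557, -0.438 and -0.563) and without Cumulus array 3 (-0.007, with -0.007 to 0.688 over the arrays left out). Gjc1, near 0 and not called, became 0.064 with quantile normalization, 0.094 with the replicate block, 0.001 with the slide as a block, 0.077 on the Spi-C arrays and -0.123 to 0.077 with 1 array left out. List medians changed sign with median centring for DNA methylation (-0.313), H3K9 and H3K27 modifiers (-0.066), ribosome biogenesis (-0.039) and trophectoderm and endoderm (-0.602), with normexp for connexins (-0.08) and trophectoderm and endoderm (-0.181), and for the last also on the Spi-C arrays (-0.15) and with probes well above background (-0.425). The cause was not tested.

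The replicate numbers did not pair the samples, since the correlations of same-numbered arrays' deviations were 0.0136 to 0.0702. With the replicate number as a block 9199 probes were lower, 11732 higher and 4157 of these above OC.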

Other observations

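By chromosome, 32.6% of the 568 genes tested on the X chromosome were lower in clones than in cumulus cells and 31.2% higher, with a median difference of -0.198. On the autosomes 27.5 to 34.2% were lower and 29.1 to 38.4% higher, with medians of -0.148 to 0.276. The X chromosome's shares lay within the range of the autosomes and its median below it.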
